A study of Mus musculus with 21 samples.

Results

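The 9 genes of B cells and lymphoid follicles followed across mouse lung and lung tumours were Cxcl13, Ccl19, Ccr7, Cxcr5, Lta, Ltb, Ms4a1, Cd79a and Fcer2a. They were taken by gene symbol from the deposited count table, so they are 9 of 38924 symbols, and all 9 passed the filter on low counts that left 15770 genes for testing. All mice were female A/J, a strain used for chemically induced lung tumours, and were sampled at 22 weeks. There were 7 groups of 3 RNA-seq libraries. Control mice received vehicle. NNK mice received 100 mg/kg of NNK, a carcinogen of tobacco smoke, by intraperitoneal injection on 1 occasion. LPS mice received vehicle and then weekly intranasal LPS, a component of the outer membrane of Gram-negative bacteria, at 5 µg in 50 µL. NNK_LPS mice received NNK and then the same LPS course. The remaining groups were NNK_LPS mice fed silibinin (Sil), indole-3-carbinol (I3C) or both (Sil_I3C), each at 20 µmol/g diet. Sil is a flavonolignan of milk thistle and I3C is a breakdown product of glucosinolates of cruciferous vegetables.

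Per the labels' protocols, RNA of every NNK-treated group came from dissected tumours pooled from 3 mice per group, and RNA of Control and LPS came from normal lung. Tumour tissue and NNK treatment therefore cannot be told apart. Nothing in the labels ties a library to an animal, so p-values measure the spread between libraries, which may be technical. Total counts ran from 13.3 to 25.3 M (13305504 to 25276293) per library. Counts of mt-Atp8 divided by those of mt-Atp6 separated 3 sets of libraries, which the labels do not describe. The quotient was 0.0206 to 0.0236 in Control, NNK, LPS 1 and LPS 2, 0.0782 to 0.0876 in LPS 3, NNK_LPS, Sil and I3C 1, and 0.117 to 0.135 in I3C 2, I3C 3 and Sil_I3C. Every NNK_LPS library thus differs in set from every NNK, Control and Sil_I3C library. Set and group change together in those comparisons. Sftpc and Scgb1a1, which mark alveolar type II and club cells of the lung, had counts in all 21 libraries. In bulk RNA, fewer cells of a type and less RNA per cell cannot be told apart.

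B cells and T cells gather in follicles through chemokines made by stromal and dendritic cells. CXCL13 draws cells that carry its receptor CXCR5, chiefly B cells and follicular helper T cells, while CCL19 draws T cells and mature dendritic cells through CCR7. Lymphocytes in turn make lymphotoxin, a trimer of the products of Lta and Ltb, which acts on the lymphotoxin beta receptor of stromal cells and maintains chemokine production there. Ms4a1 encodes CD20, Cd79a encodes a signalling chain of the B cell receptor, and Fcer2a encodes CD23, the low-affinity IgE receptor found on mature follicular B cells. Such follicles can form in inflamed lung, where they are called inducible bronchus-associated lymphoid tissue.

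The genes lie on 8 chromosomes of GRCm38, by GENCODE M21 coordinates matched on symbol. Cxcl13 spans chr5:95956951-95961068 on the plus strand and Ccl19 spans chr4:42754525-42756577 on the minus strand. Lta (chr17:35203165-35205351, minus strand) and Ltb (chr17:35194439-35196320, plus strand) are neighbours in the tumour necrosis factor cluster. Of the 9 genes, 6 matched a promoter in the RefSeq table (GRCm38.p6). Ccr7, Cxcr5 and Ms4a1 were not matched. Upstream stretches are printed for 3 genes that rose with LPS in lung, a chemokine, a lymphotoxin subunit and the CD23 gene, to show the core elements beside their starts. Capitals mark motif matches, and positions count back from the RefSeq start. Each stretch stops before the gene start of GENCODE where that lies further upstream, so the Ltb stretch ends at -69, that of Fcer2a at -2 and that of Cxcl13 at -1.
Ltb, chr17:35194257-35194438, plus strand: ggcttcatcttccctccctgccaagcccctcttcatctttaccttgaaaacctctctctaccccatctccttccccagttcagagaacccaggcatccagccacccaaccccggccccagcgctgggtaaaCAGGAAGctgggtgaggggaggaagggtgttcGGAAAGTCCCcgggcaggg
Cxcl13, chr5:95956689-95956938, plus strand: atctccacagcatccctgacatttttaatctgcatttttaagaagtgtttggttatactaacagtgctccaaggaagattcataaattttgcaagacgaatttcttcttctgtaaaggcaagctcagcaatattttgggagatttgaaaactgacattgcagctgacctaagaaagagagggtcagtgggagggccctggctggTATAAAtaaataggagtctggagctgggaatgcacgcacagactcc
Fcer2a, chr8:3694176-3694424, minus strand: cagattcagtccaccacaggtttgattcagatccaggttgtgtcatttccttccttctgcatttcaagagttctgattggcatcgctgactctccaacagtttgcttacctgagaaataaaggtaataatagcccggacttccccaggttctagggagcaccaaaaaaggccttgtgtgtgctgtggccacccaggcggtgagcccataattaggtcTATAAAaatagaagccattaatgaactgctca
The Ltb stretch holds GGAAAGTCCC, a classical kappa-B sequence read on the opposite strand and found by the kappa-B consensus, at -87 to -78, and CAGGAAG, an ETS core, at -119 to -113. Both strands were searched in windows of equal length. The kappa-B consensus stood in 3.90% of 32851 promoter windows and in 1 of the 8 windows of the 6 genes. CAGGAAG stood in 10.8% of promoter windows. GGAAAGTCCC, whose letters were taken from the Ltb window after the consensus match, stood in 46 promoter windows (0.14%). That share belongs to letters chosen because Ltb has them. TATAAA stood at -46 to -41 in Cxcl13 and at -33 to -28 in Fcer2a, and in 12.4% of all windows. The octamer ATTTGCAT (1.6% of windows) and the EBF palindrome CCCNNGGG (11.8%) had no match in the 8 windows of the 6 genes. A match describes letters only.

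Against Control lung, LPS lung had more RNA of the follicle genes, with the largest differences in the chemokines. By edgeR's quasi-likelihood test with Benjamini-Hochberg adjustment, 7 of the 9 rose and 0 fell. Of all genes tested, 25.3% rose in this comparison and 50.0% changed in either direction. The median log2 fold change was 2.16 over the 9 genes and -0.02 over all genes tested. In 6 of the 9, every LPS library exceeded every Control library, as did 30.4% of all genes tested.

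Cxcl13 stood at 8.72, 4.47 and 7.23 CPM (counts relative to normalised library size) in the Control libraries. It stood at 191, 223 and 192 CPM in the LPS libraries. No LPS library came near the Control range, and the rise was 29.9-fold (log2 fold change 4.90 ± 0.80 SE, n = 3 per group, adjusted p = 0.000115). Ccl19 was almost absent from Control lung, with 4, 4 and 2 counts (0.303, 0.255 and 0.129 CPM). It reached 223, 280 and 428 counts (16.0, 19.1 and 28.8 CPM) in LPS. This was the largest rise of the 9, at 91.4-fold (log2 6.51 ± 1.01 SE, adjusted p = 6.4e-05), and it rests on 10 Control counts. The pseudogenes Ccl19-ps1 and Ccl19-ps3, looked up after the values were seen, had 7 and 35 counts over all 21 libraries, and how the counting divided reads among these copies is not given in the sources used here.

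The receptors had smaller fold changes than their ligands. Ccr7 was 8.50, 10.4 and 15.5 CPM in Control and 36.8, 27.0 and 28.9 CPM in LPS, with no overlap. It rose 2.69-fold (log2 1.43 ± 0.30 SE, adjusted p = 0.000954). Cxcr5 was 4.40, 1.53 and 9.55 CPM in Control and 19.2, 9.35 and 14.6 CPM in LPS, so the lowest LPS library lay just under the highest Control library. Its rise of 2.78-fold (log2 1.48 ± 0.58 SE, adjusted p = 0.0424) was the weakest of the calls. It was lost without Control 1, Control 2, LPS 1 or LPS 3, with adjusted p between 0.0795 and 0.144.

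Both lymphotoxin genes rose. Ltb stood at 6.75, 5.30 and 17.9 CPM in Control and at 67.95, 66.2 and 84.0 CPM in LPS. The groups lay far apart, with a 7.26-fold rise (log2 2.86 ± 0.52 SE, adjusted p = 0.000308). Lta was scarce, with 3, 3 and 15 counts in Control against 40, 45 and 39 in LPS, or 0.228, 0.192 and 0.968 CPM against 2.87, 3.07 and 2.63 CPM. Its rise was 6.00-fold (log2 2.59 ± 0.67 SE, adjusted p = 0.00423).

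The B cell genes divided. Fcer2a went from 5.39, 3.26 and 24.6 CPM in Control to 54.0, 45.1 and 50.4 CPM in LPS, a 4.47-fold rise (log2 2.16 ± 0.70 SE, adjusted p = 0.0167). The call was lost without Control 1 (adjusted p = 0.0687) or Control 2 (0.0658). Ms4a1 stood at 8.12, 3.26 and 20.8 CPM in Control and at 25.0, 13.1 and 14.1 CPM in LPS, ranges that overlap. Its log2 fold change was 0.70, with a 95% interval of -0.64 to 2.03 (adjusted p = 0.381). Cd79a stood at 8.95, 5.11 and 40.1 CPM in Control and at 49.7, 35.8 and 37.6 CPM in LPS, with Control 3 inside the LPS range. Its log2 fold change was 1.18, with a 95% interval of -0.18 to 2.54 (adjusted p = 0.139). Without Control 3 the change of Cd79a was 2.57 ± 0.63 SE (adjusted p = 0.004), so that library alone decided this call. Leaving out Control 3 also moved called values by over 1.5 times, to a log2 fold change of 3.74 for Lta, 3.61 for Ltb, 3.55 for Fcer2a and 2.30 for Cxcr5.

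**Figure D1:**
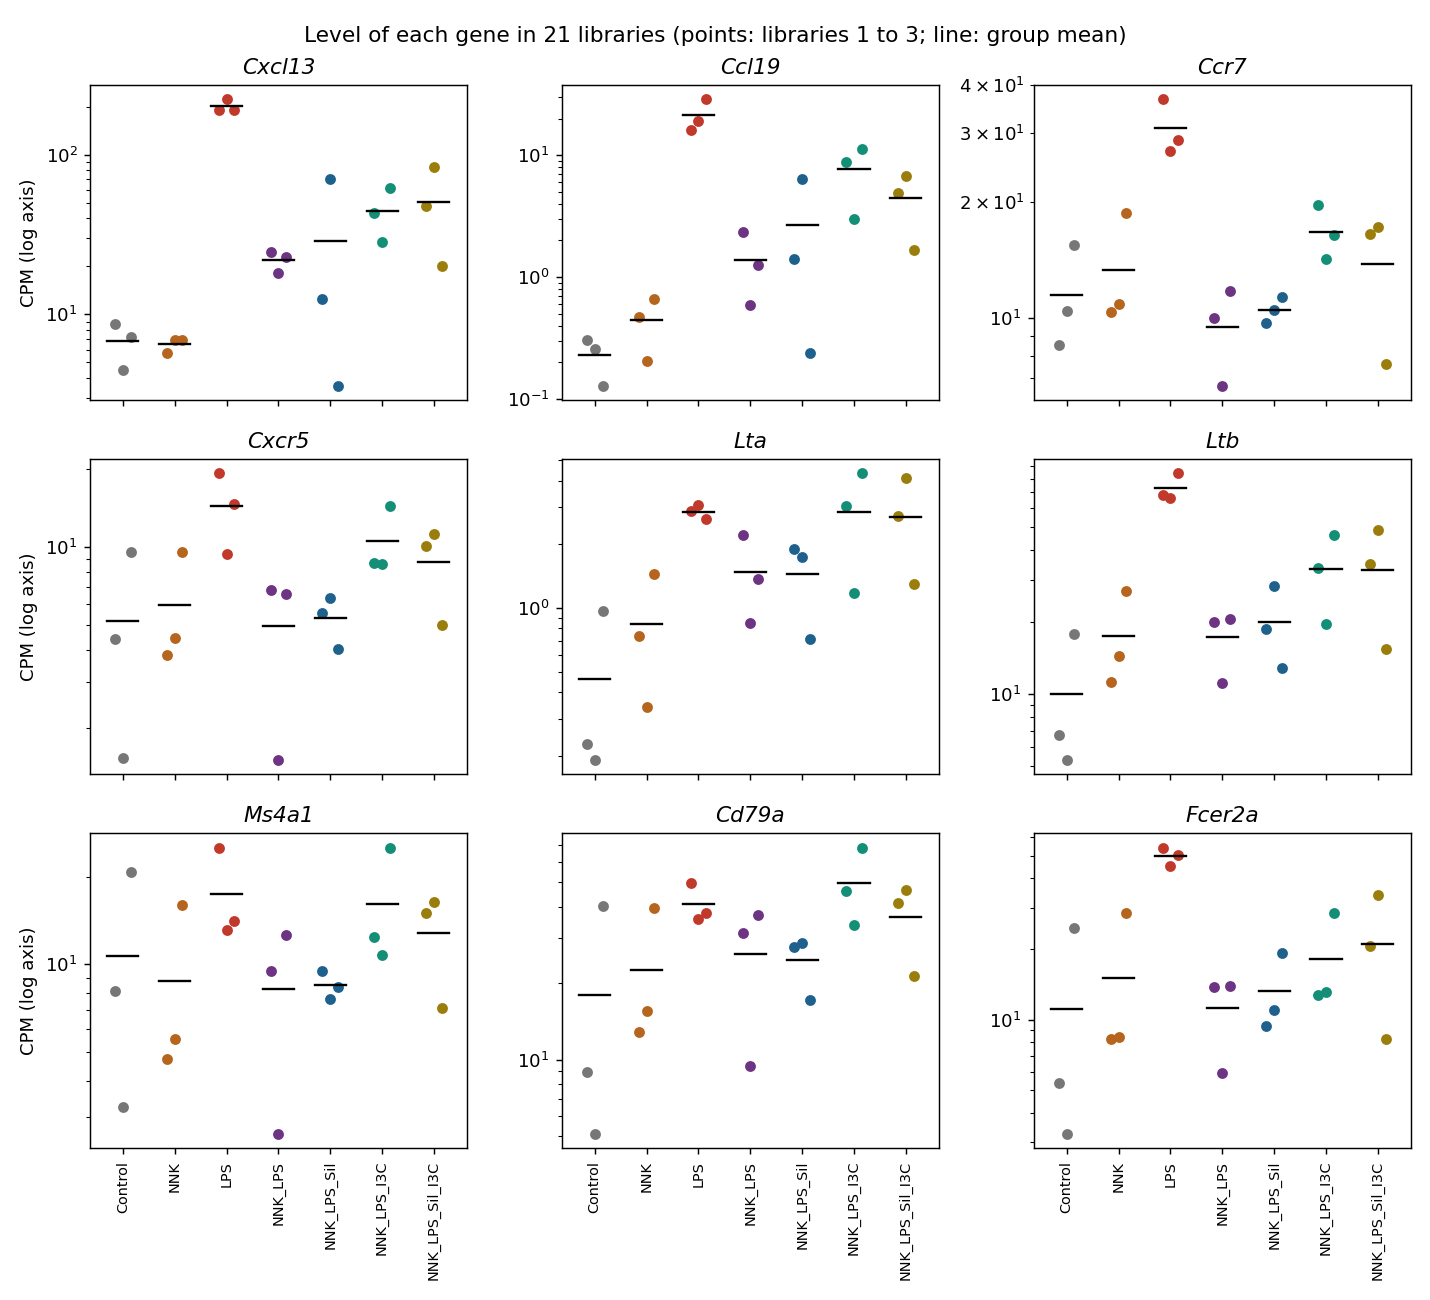
Level of each of the 9 genes in CPM on a log axis, by group, where each point is 1 of 3 libraries in replicate order and the line is the group mean. LPS libraries stand clear of every other group for Cxcl13, Ccl19, Ccr7, Ltb and Fcer2a, while for Ms4a1 and Cd79a the groups overlap.

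LPS had the highest mean of the 7 groups for 8 of the 9 genes. The exception was Cd79a, highest in I3C at 49.5 ± 17.4 CPM (SD, n = 3) and next in LPS at 41.1 ± 7.56 CPM. The LPS libraries stood apart from the group next below for Cxcl13, Ccl19, Ccr7, Ltb and Fcer2a. Below LPS, neighbouring groups in the order of means overlapped for all 9 genes, except that Cxcl13 in NNK_LPS (18.1 to 24.6 CPM) lay above Control (4.47 to 8.72 CPM). Levels can be set against each other only per length of exon. By group mean in CPM per kilobase, Cd79a led in Control at 12.4, followed by Ltb at 6.58, Cxcl13 at 5.92 and Ccr7 at 5.80. Ccl19 was lowest at 0.265. The Cd79a mean rests on Control 3 (40.1 CPM, against 8.95 and 5.11 CPM), and Cd79a did not lead in Control 1 or Control 2. In LPS Cxcl13 led at 176 CPM per kilobase, followed by Ltb at 48.0, Cd79a at 28.2 and Ccl19 at 24.6, and Lta was lowest at 2.06.

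Within a library, counts of 2 genes share depth and material, so their ratio shows how the genes moved against each other. These ratios were chosen after the values were seen and carry no test. The ratio of Fcer2a to Ms4a1 counts was 0.664 to 1.18 in Control, 1.52 to 1.79 in NNK and 2.16 to 3.58 in LPS, ranges that do not touch. It was 1.11 to 2.25 in NNK_LPS and 1.02 to 1.22 in I3C. Cd79a to Ms4a1 was 1.10 to 1.93 in Control and higher in every other library, at 1.99 to 3.80. The ligand-to-receptor ratios had their highest median in LPS, with overlap from other groups. Ccl19 to Ccr7 was 0.00833 to 0.0357 in Control and 0.435 to 0.998 in LPS, overlapped by I3C (0.212 to 0.684) and Sil (0.0211 to 0.614). Cxcl13 to Cxcr5 was 0.757 to 2.92 in Control and 9.97 to 23.9 in LPS, overlapped by NNK_LPS (3.44 to 12.0) and Sil (0.882 to 11.2). Ltb to Lta was 9.09 to 15.1 in NNK_LPS against 21.6 to 32.0 in LPS, without overlap.

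**Figure D2:**
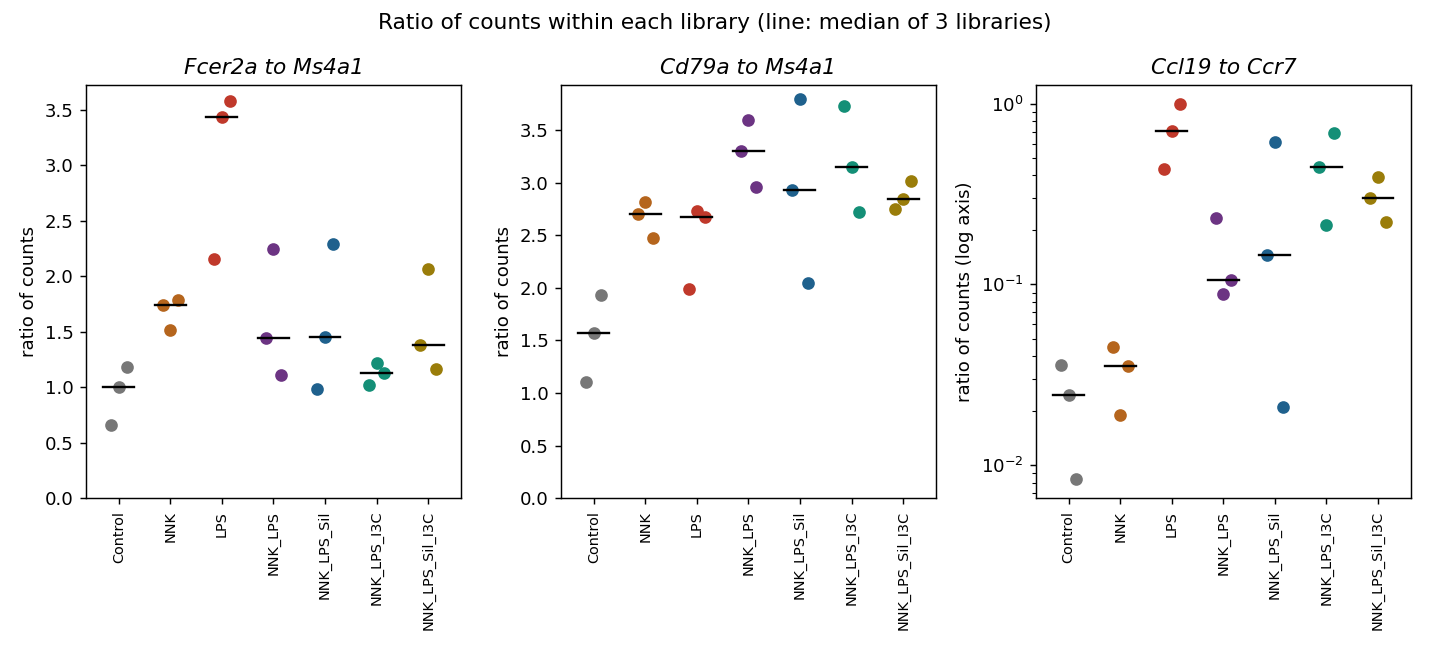
Ratios of counts within each library by group for Fcer2a to Ms4a1 and Cd79a to Ms4a1 (linear axes) and Ccl19 to Ccr7 (log axis), where points are libraries and lines are medians of 3. Fcer2a to Ms4a1 is highest in LPS 2 and LPS 3, at 3.44 and 3.58, and Cd79a to Ms4a1 is lowest in the Control libraries.

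The other genes of the pathway were taken from lists. Of 14 genes of lymphotoxin signalling and noncanonical NF-kB, 13 rose in LPS lung and 0 fell, with a median log2 fold change of 1.03. Those with the smallest adjusted p were Tnfrsf1b (2.81 ± 0.16 SE, adjusted p = 3.84e-09) and Tnfrsf1a (0.83 ± 0.08 SE, 2.44e-07), the tumour necrosis factor receptors, Nfkb2 (2.01 ± 0.22 SE, 2.01e-06), the NF-kB subunit of the noncanonical pathway, and Tnf (6.14 ± 0.69 SE, 2.57e-06). Tnf went from 1.00 ± 0.53 to 71.7 ± 5.59 CPM (SD, n = 3). Of 11 tested genes of germinal centres and follicular helper T cells, 8 rose and 0 fell, with a median of 1.60. Among them were Pdcd1 (4.68 ± 0.86 SE, adjusted p = 0.000309), Il21r (3.07 ± 0.52 SE, 0.000153), Icos (2.74 ± 0.39 SE, 2.16e-05) and Cd40 (1.60 ± 0.23 SE, 2.02e-05), which T and B cells use in their contacts. Rgs13, a germinal centre gene of the list, looked at after its values were seen, had 39 counts over all 21 libraries.

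Of 20 other B cell genes tested, 9 rose and 1 fell, with a median log2 fold change of 0.96. The leading ones were Cd74 (2.16 ± 0.19 SE, adjusted p = 1.62e-07), the invariant chain of MHC class II that other antigen-presenting cells also express, Btk (1.10 ± 0.16 SE, 2.13e-05), Cd72 (2.17 ± 0.32 SE, 3.68e-05) and Blnk (2.24 ± 0.41 SE, 0.000296). The gene that fell was Vpreb3 (-0.57 ± 0.22 SE, 0.0412), named because it was the exception. Of 11 genes of B cell survival and stroma, 8 rose and 0 fell, led by Bst1 (2.61 ± 0.24 SE, adjusted p = 1.69e-07). Of 13 tested genes of lymphoid homing, 7 rose and 0 fell, among them Icam1 (0.92 ± 0.13 SE, 2.09e-05), an adhesion molecule, and Ccl20 (3.69 ± 0.63 SE, 0.000153), a ligand of CCR6. Ccl21a, the other ligand of CCR7, chosen after its values were seen, was 82.7 ± 10.8 CPM in Control and 80.1 ± 9.80 CPM in LPS (SD, n = 3) and was not called.

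Markers of other cells moved in the same comparison. In LPS lung, 9 of 10 T cell genes, 8 of 9 plasma cell genes and 6 of 10 mature dendritic cell genes rose, and 1 dendritic gene, Zbtb46, fell. The summed level of the T cell list was 47.8 to 73.9 CPM in Control and 171 to 223 CPM in LPS, and that of the plasma cell list was 706 to 713 and 2052 to 3104 CPM. The plasma cell sum mixes unlike genes. Xbp1 was 217 ± 29.5 CPM in Control and 374 ± 38.6 CPM in LPS (SD, n = 3). Mzb1 was 3.22 ± 1.92 and 42.2 ± 18.0 CPM, and Igj, the J chain gene, 39.0 ± 13.8 and 1610 ± 456 CPM. By contrast, 8 of 8 tested heart muscle genes, 7 of 7 adipocyte genes and 9 of 10 genes of lung epithelium and endothelium fell. The heart muscle list summed to 557 to 584 CPM in Control and 101 to 146 CPM in LPS, and the adipocyte list to 101 to 150 and 11.5 to 25.7 CPM. The part of these cells in the differences of the 9 genes was not tested. The 10 thymus markers summed to 24.4 CPM in Control 2 and to 3.57 and 6.33 CPM in the other Control libraries. Control 2 held 124 of the 176 Dntt counts of all libraries. Rag1, Rag2 and Ptcra had 1, 2 and 3 counts in all. Control 2 had the lowest level of 7 of the 9 genes among the Control libraries.

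Tumours of NNK mice had levels that overlapped those of Control lung for all 9 genes. By edgeR's test 0 of the 9 were called, where 13.1% of all genes tested were. At an unadjusted p under 0.05 the count was also 0, as it was with DESeq2. The median log2 fold change was 0.32 over the 9 genes and -0.02 over all genes. Cxcl13 stood at 5.75, 6.90 and 6.90 CPM in NNK, inside the Control range. Ltb, with the smallest p of the 9, stood at 11.2, 14.4 and 27.1 CPM, and its log2 fold change was 0.81 with a 95% interval of -0.29 to 1.91 (adjusted p = 0.306).

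Between tumours of NNK_LPS mice and tumours of NNK mice, Cxcl13 was the member whose libraries did not overlap. These groups also belong to different library sets. By edgeR's test 0 of the 9 were called, and 0.0951% of all genes were. At an unadjusted p under 0.05 there was 1, Cxcl13, and with DESeq2 there were 0. Cxcl13 stood at 24.6, 18.1 and 22.7 CPM in NNK_LPS, above every NNK library, as in 10.7% of all genes, with a log2 difference of 1.74 ± 0.76 SE (adjusted p = 0.273). In a fit to these groups alone its log2 difference was 1.73 ± 0.16 SE (adjusted p = 0.0228). Ccr7 stood at 10.0, 6.69 and 11.8 CPM in NNK_LPS against 10.4, 10.9 and 18.7 CPM in NNK. Its log2 difference was -0.48 with an interval of -1.13 to 0.16. Ltb had a log2 difference of -0.02 with an interval of -1.08 to 1.04.

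Against Control lung, NNK_LPS tumours had 0 of the 9 called by edgeR, where 24.6% of all genes were, 3 at an unadjusted p under 0.05 and 2 with DESeq2. The 3 were Cxcl13 (log2 1.69, interval 0.08 to 3.30, adjusted p = 0.114), Ccl19 (2.59, 0.14 to 5.03, 0.111) and Lta (1.64, 0.17 to 3.11, 0.0937). DESeq2 called Ccl19 (2.63, adjusted p = 0.0277) and Lta (1.68, 0.047). In 2 of the 9, Cxcl13 and Ccl19, every NNK_LPS library exceeded every Control library, as in 18.9% of all genes, and Ccl19 stood at 37, 9 and 22 counts against 4, 4 and 2. In a fit to these groups alone, Cxcl13 was called (log2 1.71 ± 0.24 SE, adjusted p = 0.00667). Without Control 3, Lta (log2 2.81, adjusted p = 0.0298) and Cd79a (1.93, 0.039) were called.

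Against LPS lung, NNK_LPS tumours had less RNA of most of the 9 genes. By edgeR's test 6 of the 9 fell and 0 rose, where 20.9% of all genes fell and 38.2% changed. The median log2 fold change was -1.70 over the 9 genes and -0.02 over all. In 8 of the 9, every NNK_LPS library lay below every LPS library, as in 27.4% of all genes. This comparison shares the LPS libraries with that of LPS and Control.

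Ccl19 was 2.33, 0.590 and 1.25 CPM in NNK_LPS against at least 16.0 CPM in LPS, and fell by 3.93 on the log2 scale (± 0.80 SE, adjusted p = 0.00104). Cxcl13 fell by 3.21 (± 0.72 SE, adjusted p = 0.00235), to levels still above Control. Ltb was 20.0, 11.2 and 20.7 CPM and fell by 2.07 (± 0.50 SE, 0.00395). Ccr7 fell by 1.70 (± 0.31 SE, 0.000357). Fcer2a, at 13.7, 5.90 and 13.9 CPM, fell by 2.15 (± 0.69 SE, 0.0219), and Cxcr5, at 6.80, 1.51 and 6.60 CPM, by 1.53 (± 0.57 SE, 0.0453). Those last calls rested on few libraries. The Fcer2a call was lost without NNK_LPS 2 (adjusted p = 0.0929) and the Cxcr5 call without any of LPS 1, LPS 3 and the NNK_LPS libraries (0.0524 to 0.163).

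For the remaining genes the differences did not pass the test. Lta was 2.20, 0.853 and 1.37 CPM in NNK_LPS, all below LPS, with a log2 difference of -0.95 and an interval of -2.18 to 0.28 (adjusted p = 0.211). Ms4a1 was 9.50, 2.62 and 12.6 CPM, also all below LPS, with a difference of -1.07 and an interval of -2.42 to 0.28 (0.199). Cd79a was 31.4, 9.45 and 37.2 CPM, overlapping LPS, with a difference of -0.66 and an interval of -1.99 to 0.68 (0.437). The library LPS 3 shares the mt-Atp8 ratio of the NNK_LPS libraries, and its levels are those given last for LPS above. It lay above LPS 1 for Cxcl13 (192 and 191 CPM), Ccl19 (28.8 and 16.0) and Ltb (84.0 and 67.95). It lay below LPS 1 for the other 6, among them Ms4a1 (14.1 and 25.0 CPM), Cd79a (37.6 and 49.7) and Ccr7 (28.9 and 36.8). LPS 2 is of the same set as LPS 1, and against it the order differed. LPS 3 lay below LPS 2 for Cxcl13 (223 CPM in LPS 2) and Lta (3.07). It lay above LPS 2 for the rest, among them Ms4a1 (13.1 CPM in LPS 2), Cd79a (35.8) and Ccr7 (27.0). With a term for the library set, 4 of the 9 fell, without Fcer2a (adjusted p = 0.096) and Cxcr5 (0.168).

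Whether LPS went with the same change in tumours as in lung was tested as a difference of differences, (NNK_LPS minus NNK) minus (LPS minus Control). Its tumour part compares libraries of different sets. By edgeR's test 4 of the 9 were lower in tumours and 0 higher, where 14.4% of all genes were lower and 25.1% differed. Ltb differed by -2.88 ± 0.72 SE on the log2 scale (adjusted p = 0.00798) and Ccr7 by -1.91 ± 0.43 SE (0.00395). These calls remained without any of the 12 libraries in turn, and without Control 3 the Ltb value was -3.62. Ccl19 differed by -4.885 ± 1.59 SE (0.0337) and Cxcl13 by -3.16 ± 1.07 SE (0.0403). The Cxcl13 call was lost without any of the 12 libraries (adjusted p from 0.0568 to 0.0908). The Ccl19 call was lost without any Control library, NNK 1, NNK 3, LPS 3, NNK_LPS 2 or NNK_LPS 3 (0.055 to 0.122). Fcer2a differed by -2.59 ± 0.97 SE (0.0628) and was called without Control 3 (-3.97, 0.00556) and with DESeq2 (-2.61, 0.0362). Without Control 3, Cxcr5 (-2.55, 0.0328) and Cd79a (-2.36, 0.0415) were called too.

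**Figure D3:**
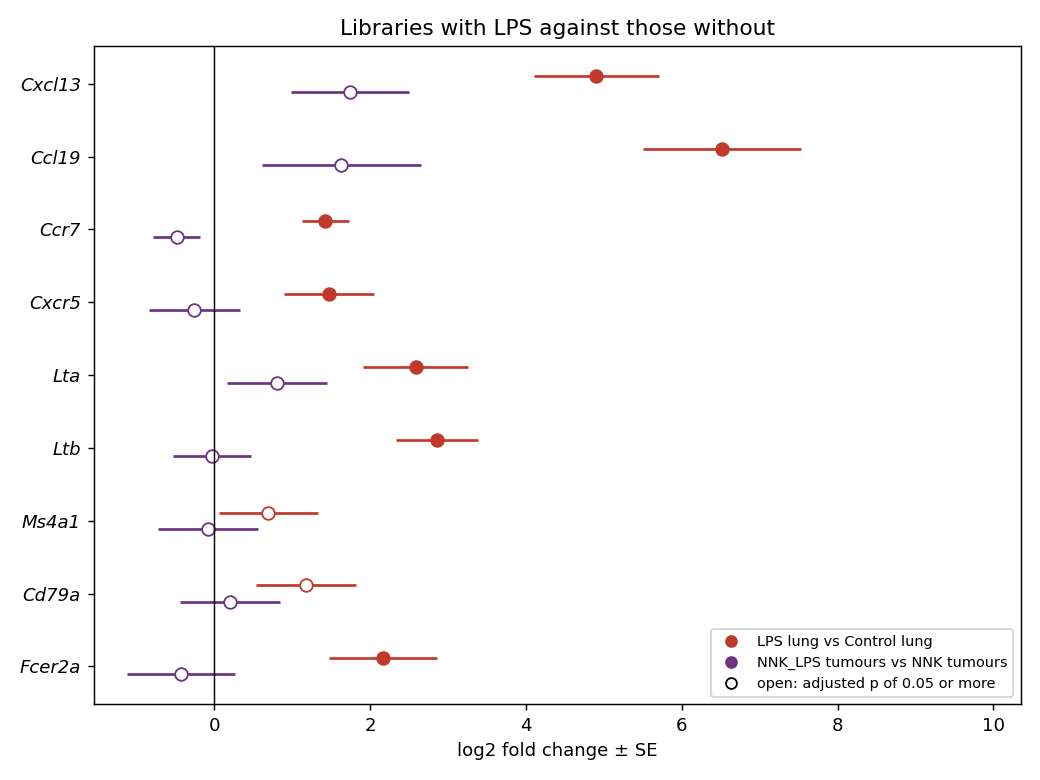
Log2 fold change ± SE of each gene for LPS lung against Control lung and for NNK_LPS tumours against NNK tumours, with filled points for adjusted p under 0.05 and n = 3 libraries per group. In lung 7 of the 9 genes rose, with Ccl19 at 6.51 and Cxcl13 at 4.90, and in tumours 0 passed, with values from -0.48 to 1.74.

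Most genes of the lymphotoxin and noncanonical NF-kB list had less RNA in NNK_LPS tumours than in LPS lung. Activity of the pathway was not measured. Of the 14 lymphotoxin and noncanonical NF-kB genes, 11 fell in NNK_LPS against LPS and 12 had a lower LPS difference in tumours, with median log2 values of -0.83 and -1.21. Tnf stood at 3.23 ± 0.31 CPM in NNK_LPS (SD, n = 3) and was lower than in LPS by a log2 difference of -4.47 ± 0.60 SE (adjusted p = 3.05e-05). Nfkb2 had a difference of -1.78 ± 0.22 SE (1.16e-05). Ltbr, named because it encodes the lymphotoxin beta receptor, had a lower LPS difference in tumours (log2 -0.47 ± 0.12 SE, adjusted p = 0.0091). It was not called in NNK_LPS against LPS (99.8 ± 5.67 CPM in LPS and 88.1 ± 7.06 CPM in NNK_LPS, SD). Of the germinal centre and helper T cell genes 6 of 11 fell, of the other B cell genes 5 of 20 and of the plasma cell genes 2 of 9. The B cell and plasma cell counts are near the 20.9% of all genes tested that fell. Igj, the J chain of secreted antibodies, was 1610 ± 456 CPM in LPS and 1151 ± 442 CPM in NNK_LPS (SD, n = 3), with a log2 difference of -0.48 ± 0.53 SE (adjusted p = 0.499). The T cell list summed to 81.2 to 136 CPM in NNK_LPS, between the Control and LPS ranges, and 2 of its 10 genes fell, which is also near that share. The mature dendritic cell list summed to 541 to 752 CPM in LPS and 348 to 467 CPM in NNK_LPS, and 5 of its 10 genes fell. The lung epithelium and endothelium list summed to 28850 to 36020 CPM in LPS and 65660 to 71820 CPM in NNK_LPS, and 6 of its 10 genes rose. All 6 were epithelial genes. The epithelial gene Sftpc, which weighs heavily in the sum, was 8326 ± 1836 CPM in LPS and 30630 ± 5096 CPM in NNK_LPS (SD). The endothelial genes Pecam1, Cdh5 and Cldn5, named to divide the list, were not called. Pecam1 was 454 ± 6.84 CPM in LPS and 526 ± 104 CPM in NNK_LPS (SD). The heart muscle list summed to 87.8 to 166 CPM in NNK_LPS, overlapping LPS, and 0 of its 8 genes were called. The part of these cells in the differences of the 9 genes was not tested.

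With Sil in the diet, NNK_LPS tumours had 0 of the 9 genes called by edgeR, 0 at an unadjusted p under 0.05 and 0 with DESeq2, where 0% of all genes were called. The chemokines were spread more widely here than in any other group. Cxcl13 was 12.6, 70.8 and 3.57 CPM and Ccl19 was 1.41, 6.45 and 0.238 CPM. Sil 2 was highest and Sil 3 lowest for both, 19.8-fold apart for Cxcl13 and 27.1-fold apart for Ccl19. Ms4a1, in contrast, was 9.47, 7.58 and 8.39 CPM, and Ccr7 was 9.72, 10.5 and 11.3 CPM, each within 1.25-fold. The log2 difference from NNK_LPS was 0.41 for Cxcl13, with an interval of -1.05 to 1.87, and 0.15 for Ccr7, with an interval of -0.50 to 0.79.

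With I3C, 0 of the 9 genes were called by edgeR or DESeq2, where edgeR called 2.02% of all genes, and 2 had an unadjusted p under 0.05. All 9 had positive log2 differences from NNK_LPS, with a median of 0.95 against 0.01 over all genes. In 4 of the 9 (Cxcl13, Ccl19, Ccr7 and Cxcr5) every I3C library lay above every NNK_LPS library, as in 12.2% of all genes. Ccl19 was 8.76, 3.00 and 11.2 CPM in I3C against 2.33, 0.590 and 1.25 CPM in NNK_LPS. Its log2 difference of 2.45 had an interval of 0.80 to 4.10 (adjusted p = 0.0935). Ccr7 was 19.6, 14.2 and 16.4 CPM, with a difference of 0.81 and an interval of 0.17 to 1.45 (0.142). Cxcl13 was 43.2, 28.3 and 62.2 CPM, with a difference of 1.03 and an interval of -0.41 to 2.48 (0.414). I3C 1 is the I3C library with the mt-Atp8 ratio of NNK_LPS, and with it alone 0 of the 9 were called.

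Markers of heart and fat moved with the I3C group. All 8 tested heart muscle genes rose in I3C against NNK_LPS, with a median log2 fold change of 2.46, and the list summed to 391 to 568 CPM against 87.8 to 166 CPM. The adipocyte list summed to 76.8 to 170 CPM against 25.3 to 68.3 CPM, and 0 of its 7 genes were called. The T cell list summed to 120 to 206 CPM against 81.2 to 136 CPM. Their part in the levels of the 9 genes was not tested. Of the 14 lymphotoxin and noncanonical NF-kB genes 1 rose, Map3k14 (0.49 ± 0.12 SE, adjusted p = 0.0424), which encodes the NF-kB-inducing kinase and is named because it was the only one. Glycam1, a mucin-like ligand made by high endothelial venules and chosen after its values were seen, was 1.84 ± 1.29 CPM in I3C, 0.481 ± 0.784 in NNK_LPS, 0.591 ± 0.678 in Sil, 1.08 ± 1.13 in Sil_I3C and 0.665 ± 0.246 in LPS (SD, n = 3), with 0 counts in Control. Of its 23 NNK_LPS counts 22 lay in 1 library, and of its 120 I3C counts 76.

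With both agents, 0 of the 9 genes were called by edgeR or DESeq2, where edgeR called 1.36% of all genes, and 1 had an unadjusted p under 0.05. The median log2 difference was 0.87 against 0.02 over all genes, and 0 of the 9 lay wholly above NNK_LPS, as 9.47% of all genes did. Cxcl13 was 47.7, 83.4 and 20.2 CPM and Ccl19 was 4.93, 6.71 and 1.69 CPM, with Sil_I3C 3 inside the NNK_LPS range for both. Ccl19 had a log2 difference of 1.67 with an interval of 0.01 to 3.32 (adjusted p = 0.299). The 3 dietary comparisons share the NNK_LPS libraries, and differences between the dietary groups were not tested.

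**Figure D4:**
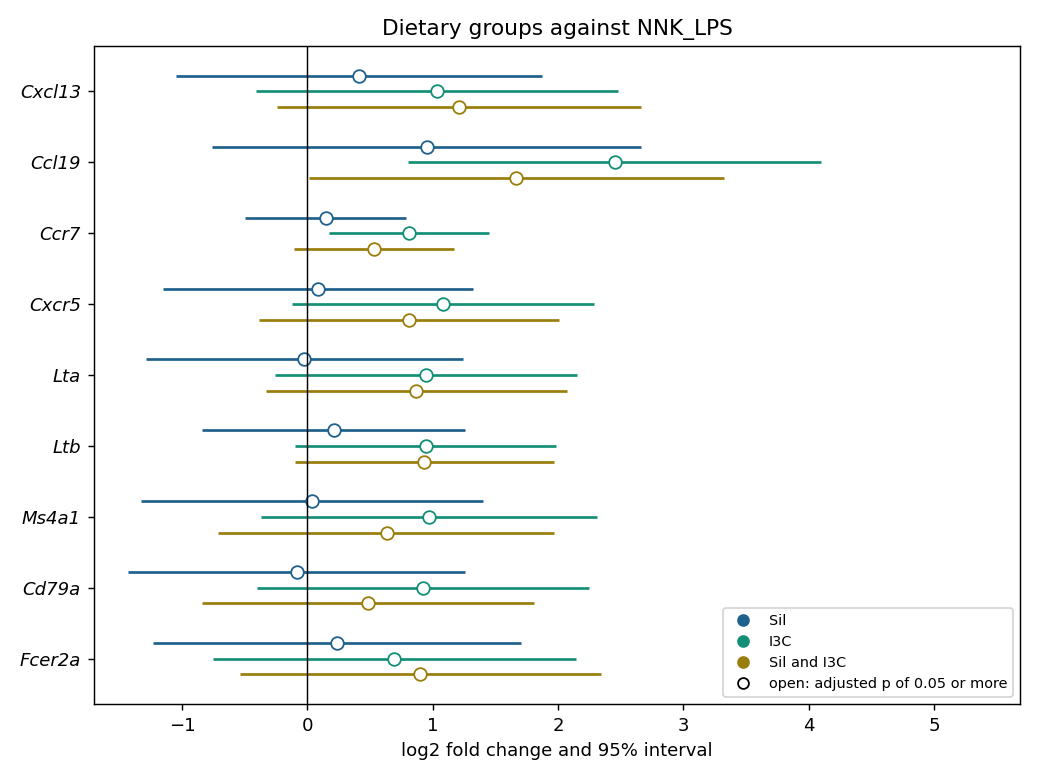
Log2 fold change with 95% interval of each gene for the 3 dietary groups against NNK_LPS, with n = 3 libraries per group; all points are open, since 0 of 9 genes passed in each comparison. The I3C intervals of Ccl19 (0.80 to 4.10) and Ccr7 (0.17 to 1.45) and the Sil_I3C interval of Ccl19 (0.01 to 3.32) lie above 0 before adjustment.

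In several groups, libraries differed from each other in most of the 9 genes together. The order was more mixed in LPS and Sil. There LPS 1 and Sil 2 were each highest for 5 of 9, and LPS 2 and Sil 3 were each lowest for 6 of 9. Sil 3 was highest for Fcer2a and Ccr7. Sil_I3C 2 was highest of its group for 9 of 9 genes and Sil_I3C 3 lowest for 9 of 9. NNK_LPS 2 was lowest for 9 of 9, and I3C 3 and NNK 3 were each highest for 8 of 9. Control 3 was highest for 7 of 9, the exceptions being Cxcl13 and Ccl19, for which Control 1 was highest. Among Control libraries the ratio of highest to lowest was 6.39 for Ms4a1, 7.55 for Fcer2a and 7.85 for Cd79a, while Cxcl13 was 1.95-fold and Ccr7 1.82-fold apart. In LPS lung the ratios of these genes were 1.17 for Cxcl13, 1.20 for Fcer2a, 1.36 for Ccr7, 1.39 for Cd79a and 1.91 for Ms4a1. The widest of the 9 in LPS was Cxcr5, at 2.05.

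**Figure D5:**
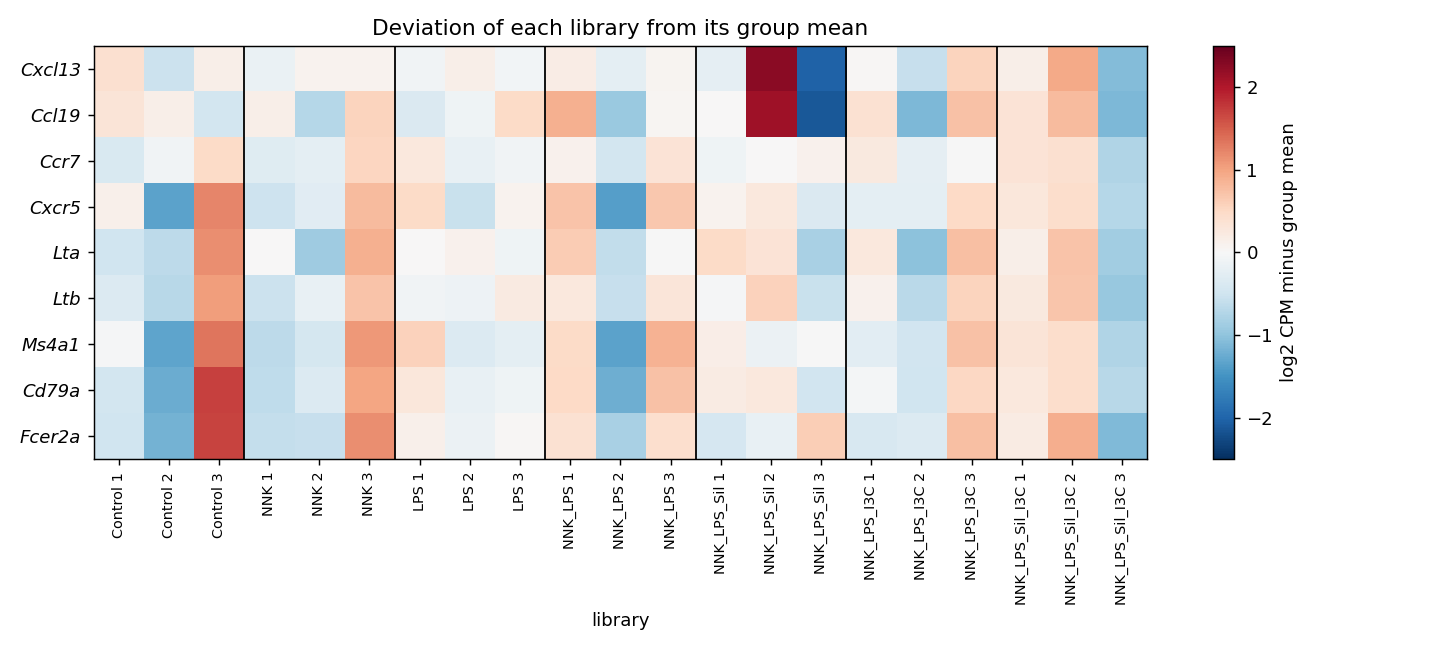
Difference of each library's log2 CPM (prior count 2) from its group mean, with genes in rows and the 21 libraries in columns, red for above and blue for below. Control 3 and NNK 3 are red for the B cell genes, Sil_I3C 3 and NNK_LPS 2 are blue throughout, and Sil 2 and Sil 3 part most for Cxcl13 and Ccl19.

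Genes whose pattern over the 21 libraries was most like each member were sought among 14262 tested genes, by the root mean square (RMS) difference of centred log2 CPM. Ltb was nearest to Tlr1, a Toll-like receptor (0.22), and Il21r (0.23), where the median over all genes was 1.06. Ccr7 was nearest to Coro1a, an actin regulator of leukocytes (0.25), and P2ry10 (0.27). The B cell receptor gene Cd79a was nearest to Ikzf3, a lymphocyte transcription factor (0.26), and Ms4a1 to Fcrla (0.24). Cxcr5 was 0.31 from Fcrl1. Fcer2a lay closer to Tlr1 (0.40) and to Ltb, the nearest of the 9 (0.48), than to Ms4a1 or Cd79a. The chemokines had no neighbour as close: Cxcl13 was 0.64 from Slamf8 and 0.66 from Ccl19, and Ccl19 was 0.67 from Chl1. Lta was nearest to Sh2d2a, a T cell adaptor (0.35). These distances are descriptions over libraries that share groups.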

How the data were processed

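RNA-seq counts for 21 libraries of mouse lung and lung tumours were analysed. The authors deposited whole-number counts per gene symbol, not normalised. Per the labels' protocols, libraries were made with the TruSeq RNA kit, version 2, and the submitters' processing notes name mm10. The aligner, counter, annotation and strandedness were not given in the sources used here. Of 38924 symbols, 16756 had 0 counts throughout.

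Counts were scaled by trimmed mean of M-values in edgeR 4.0.16 (R 4.3.3). Genes passing filterByExpr with a minimum count of 10 (15770) were fitted by the robust quasi-likelihood model to 7 groups (14 residual degrees of freedom, common biological coefficient of variation 0.168). In each of 9 contrasts, Benjamini-Hochberg adjustment ran over the 15770 genes, with calls at an adjusted p under 0.05. SE was derived from the F statistic, and intervals are 95%, unadjusted. The script was tested on simulated data. Exon lengths and coordinates came from GENCODE M21, promoters from the RefSeq table. Likeness used log2 CPM with a prior count of 2, leaving out gene models, immunoglobulin and T cell receptor segments.

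The 9 genes and the lists were chosen with earlier results of these data known. From each list at most the 4 genes with the smallest adjusted p in LPS against Control are named, and others are marked. Some results are not reported here. Alternatives were relative log expression size factors, no filter, DESeq2 1.42.0, the compared groups alone, a replicate block, a term for library set and leaving out each library, and, chosen after seeing the data, I3C 1 alone. Replicate numbers shared between I3C and NNK_LPS went with correlated deviations (0.16, 0.28 and 0.26), a pairing read from the data. With the replicate block 0 of the 9 genes were called there too.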

Additional observations from a re-analysis of the deposited data

Results flagged for a closer look

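The LPS difference was lower in tumours than in lung for 4 of the 9 genes, by edgeR's interaction test on the log2 scale. Of all genes tested, 14.4% were lower and 25.1% differed. The difference of differences was -3.16 for Cxcl13, -4.885 for Ccl19, -1.91 for Ccr7 and -2.883 for Ltb. The Ccr7 and Ltb calls remained when each compared library was left out in turn. The Cxcl13 call was lost each time, and the Ccl19 call most times. In lung the LPS differences of Cxcl13, Ccl19, Ccr7 and Ltb were 4.90, 6.51, 1.43 and 2.86, and in tumours they were 1.74, 1.63, -0.48 and -0.02. NNK treatment and tumour tissue cannot be told apart in these values.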

How the results depend on the processing

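Over the alternatives, the 17 called results of the 9 genes gave 228 values, of which 184 kept direction and call, 44 kept direction and lost the call, and 0 reversed. Counts of called genes that moved by over 1.5 times were those of NNK_LPS against Control (0 in the chosen fit, 2 with DESeq2, 1 with the compared groups alone), NNK_LPS against NNK (1 with the compared groups alone) and the difference of LPS differences (4 in the chosen fit, 2 with no filter on low counts). The cause was not tested. Leaving out 1 library gave 5 to 8 genes in LPS against Control, 5 without Control 1 or Control 2 and 8 without Control 3. It gave 4 to 6 in NNK_LPS against LPS (4 without NNK_LPS 2), 0 to 2 in NNK_LPS against Control (2 without Control 3) and 2 to 5 in the difference of differences. There it gave 5 without Control 3, and 2 without Control 1, Control 2, NNK 1, NNK 3, LPS 3, NNK_LPS 2 or NNK_LPS 3. It gave 0 in each of the other comparisons.

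The replicate block left 7 genes called in LPS against Control, 6 in NNK_LPS against LPS and 4 in the difference of differences, where it added Fcer2a (-2.74, adjusted p = 0.0349) and lost Cxcl13 (adjusted p = 0.0504), and 0 elsewhere. In NNK against Control, as in I3C against NNK_LPS, each library's closest partner carried the same number (correlations 0.18, 0.03 and 0.29). In the other comparisons this did not hold for every replicate. With a term for library set, 6, 4 and 3 genes were called. Only LPS and I3C span sets, so that term is told apart from group through these groups alone. Ccl19 was below the filter in the fits of NNK or NNK_LPS with Control alone and gave no value there. With a prior count of 0.5, 23 of the 27 likeness picks were shared. The few counts of Ccl19 (10) and Lta (21) over Control limit their fold changes.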
